A study of Sus scrofa with 8 samples.

Results

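The genes described here are 10 textbook targets of the transcription factor STAT5 that govern cell survival and growth, and they were chosen by name: MYC, BCL6, the kinase genes PIM1, PIM2 and PIM3, the survival genes BCL2, BCL2L1 and MCL1, and the cyclin genes CCND2 and CCND3. Of these 10 names, 9 had a row among the 31907 genes of the deposited count table and 8 had any counts. The samples were 8 whole skin biopsies of Yorkshire swine, labelled wild type, from the animals called pig 13 and pig 14. Each pig gave 2 sites given 200 ng IL-15 (100 µl, in saline) into the dermis and biopsied after 3 h, and 2 sites without any injection, so that 4 injected and 4 control biopsies were compared. The labels give no age. No site received saline alone, the injected sites all carried the grid number 12 and the control sites the numbers 6 or 7, so IL-15, the needle and the position on the skin cannot be told apart.

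IL-15 binds a receptor that shares its beta and gamma chains with the IL-2 receptor, and the kinases JAK1 and JAK3 on these chains phosphorylate STAT5. In lymphocytes, activated STAT5 enters the nucleus and drives genes that keep the cell alive and let it grow and divide. MYC is a transcription factor for ribosome production and cell growth, the PIM kinases are active as soon as they are made and so are set by their level, BCL2, BCL-xL (the product of BCL2L1) and MCL1 hold back the mitochondrial route to cell death, and D cyclins activate the kinases that open the cell cycle. BCL6 is a transcriptional repressor that activated STAT5 is known to turn down in T cells. Most cells of skin are keratinocytes, fibroblasts and vessel cells, and they use these genes too, under many other signals.

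Total counts were 28471089 to 36070107 per biopsy. Skin was present in each biopsy, with the epidermal keratin gene KRT5 at 3171 to 10850 CPM (counts scaled to library size, with TMM factors that even out composition between libraries) and the collagen gene COL1A1 at 8115 to 102531 CPM. The pig 13 control from site 7b lay outside the range of the other controls in several sums of cell type markers. None of its marker sums was set apart by the rule for extreme biopsies used under the flagged results below. Its summed level of 8 basal keratinocyte markers was 22340 CPM against 7766 to 13957 CPM in the other controls, that of 12 markers of differentiated keratinocytes 22564 against 8253 to 12088 CPM, that of 10 fibroblast markers 19853 against 77514 to 193243 CPM and that of 13 myeloid markers 832 against 324 to 731 CPM. Values are therefore also given without this biopsy. Lymphocyte markers were sparse, with a sum over 20 genes of 37.6 to 98.05 CPM after injection and 29.7 to 111 CPM without, and none of the 20 was at 0 in every biopsy. In a whole biopsy, fewer cells of a type and less RNA per cell cannot be told apart. Biopsies of 1 pig are not separate animals, so the tests below measure the spread between skin sites of 2 pigs.

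MCL1 and BCL2 have no usable value in the deposited counts. MCL1 (ENSSSCG00000039314, chromosome 4, 98527907 to 98567006 in Sscrofa11.1) had 0 counts in all 8 biopsies, where 3 counts would be 0.0832 to 0.105 CPM of the library totals. All 4427 bases of its annotated exons lie also in exons of ENSA (ENSSSCG00000006653), the gene of a phosphatase inhibitor, whose model has the same outer bounds and the same strand. Across the table, 360 genes had every exon base inside exons of other genes, and all 360 had 0 counts in all biopsies. Of genes with no shared exon base, 2294 of 25288 had no count, or 9.07%, and of genes with a partial overlap 237 of 6259, or 3.79%. The value of 0 for MCL1 is thus one that every gene with such a model has in this table, and it gives no level of MCL1 RNA. The same pattern held for overlaps on the opposite strand, where 198 of 198 such genes were at 0, so the counts behaved as made without regard to strand.

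**Figure D1:**
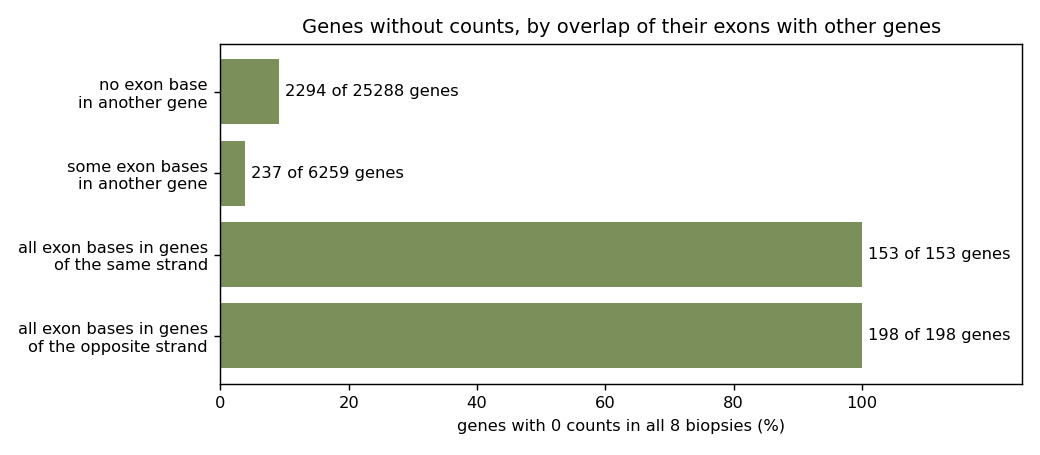
Share of genes with 0 counts in all 8 biopsies (x axis, percent) for genes grouped by how far their exons lie within exons of other genes (y axis), with the number of genes beside each bar. Both groups with completely covered exons, to which MCL1 belongs, stand at 100%, against 9.07% of genes with no shared exon base.

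BCL2 had no row under its name in the count table. In the RefSeq annotation of the same build the gene spans chromosome 1, 158337403 to 158518214. This span lies within the model of KDSR (ENSSSCG00000025744, 158288544 to 158518879), a gene of sphingolipid synthesis, and 5754 exon bases of that model fall inside the BCL2 span. Whether these bases include exons of BCL2 was not tested, and no value is given for BCL2. CCND3 was affected in part, since 2979 of its 9337 exon bases, or 31.9%, are shared with BYSL or TAF8. The other members with counts (MYC, PIM1, PIM2, PIM3, BCL2L1, BCL6 and CCND2) share no exon base with another gene.

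The 8 members with counts differed widely in level, and all 8 passed the filter on low counts. Scaled for exon length, the order of mean levels over 8 biopsies was BCL6 with 28.6 ± 3.73 CPM per kilobase, PIM1 with 27.6 ± 5.70, MYC with 26.8 ± 4.96, BCL2L1 with 22.8 ± 3.10, CCND2 with 20.4 ± 3.38, PIM3 with 15.5 ± 2.60, CCND3 with 4.89 ± 0.57 and PIM2 with 1.99 ± 0.44 CPM per kilobase (SD, n = 8). The first 5 overlapped with their neighbours in this order. BCL6 was above PIM1 in 6 of 8 biopsies, PIM1 above MYC in 3, MYC above BCL2L1 in 6, BCL2L1 above CCND2 in 7 and CCND2 above PIM3 in 7. PIM3 was above CCND3, and CCND3 above PIM2, in all 8 biopsies. With only the exon bases that CCND3 shares with no other gene, its mean was 7.18 CPM per kilobase, which left its place between PIM3 and PIM2. Counting error was small beside the differences between sites, at 1.54% to 3.06% of the count for 7 of these genes and 6.79% to 11.3% for PIM2, which had 78 to 217 counts per biopsy.

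**Figure D2:**
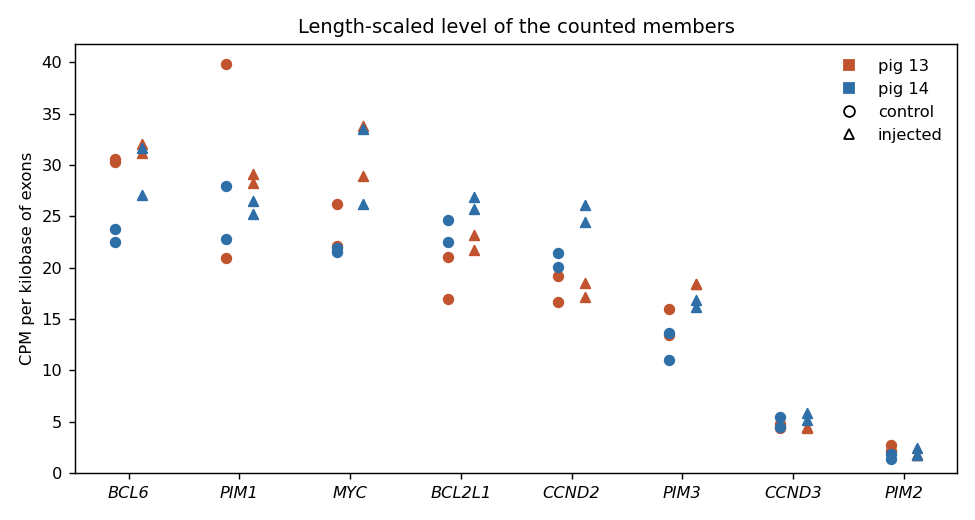
Level of each counted member in CPM per kilobase of exons (y axis), ordered by its mean (x axis), with a point for each biopsy, circles for control and triangles for injected sites and a colour for each pig. BCL6, PIM1, MYC, BCL2L1 and CCND2 overlap, while CCND3 and PIM2 lie below the others in every biopsy.

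None of the 8 counted members was called different between injected and control sites. In edgeR's quasi-likelihood test with pig as block, at a Benjamini-Hochberg adjusted p under 0.05 over 19862 genes, 0.0352% of all genes were called higher and 0% lower. DESeq2 called 0.242% of all genes higher and also none of the members, and limma-voom called no member. At an unadjusted p under 0.05 edgeR had 2 members higher, MYC and PIM3, and 0 lower, beside 2.39% of all genes higher and 2.15% lower. The log2 fold change was positive for 6 of 8 members, beside 48.2% of all genes, and the median over the members was 0.17, beside -0.0078 over all genes. These counts are descriptions of a list of chosen genes that share their 8 biopsies, and no test was made of the list.

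**Figure D3:**
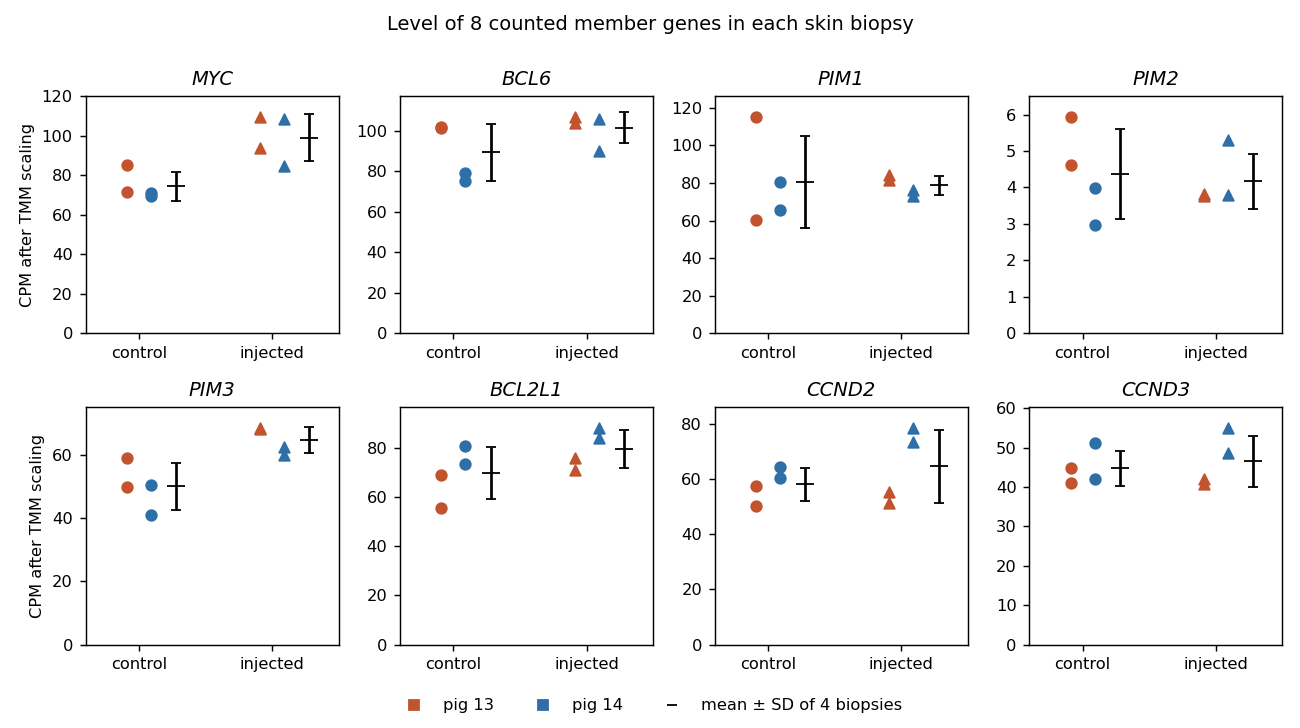
CPM after TMM scaling (y axis, from 0) of each counted member in the 4 control and 4 injected biopsies (x axis), coloured by pig, with black bars for the mean and SD of 4 biopsies. PIM3 alone has every injected biopsy above every control biopsy, and PIM1 and PIM2 have their highest value in a pig 13 control.

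MYC had the smallest p of the members. It was at 109.4 CPM (site 12c) and 93.7 CPM (site 12e) in the injected biopsies of pig 13, against 71.6 CPM (site 7b) and 85.0 CPM (site 6b) in its controls. In pig 14 it was at 108.4 CPM (site 12c) and 84.9 CPM (site 12d) after injection, against 70.9 CPM (site 7e) and 69.7 CPM (site 6b) without. Every injected biopsy was thus above both controls of its own pig, and across pigs the groups overlapped narrowly, the lowest injected value (pig 14, site 12d) lying just below the highest control. The means were 99.1 ± 11.9 CPM after injection and 74.3 ± 7.15 CPM without it (SD, n = 4), a 1.33-fold difference with a 95% confidence interval of 1.13 to 1.57. The log2 fold change was 0.42 ± 0.11 (SE), with an adjusted p of 0.772 by edgeR and 0.213 by DESeq2, so it did not pass over all genes. It was 0.37 ± 0.15 in pig 13 and 0.46 ± 0.15 in pig 14. MYC (ENSSSCG00000005965) lies on chromosome 4, 12455119 to 12461078, on the minus strand.

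Markers of skin cell types were read beside MYC and PIM3. Of 8 basal keratinocyte markers, 7 had a positive log2 fold change, with 0 at an unadjusted p under 0.05. Their sum in pig 14 was 12667 and 14562 CPM at injected and 7766 and 8458 CPM at control sites, and in pig 13 it was 16175 and 16771 CPM at injected sites but 13957 and 22340 CPM at controls. Of 12 markers of differentiated keratinocytes, 0 had a positive log2 fold change and 4 were lower at an unadjusted p under 0.05. Their median was -0.45 (-0.27 without site 7b). Their sum in pig 14 was 5213 and 9100 CPM at injected and 8253 and 12088 CPM at control sites. In pig 13 it was 10498 and 11726 CPM at injected and 9679 and 22564 CPM at control sites, so the sums overlapped in both pigs. Of 10 endothelial markers, 8 were positive and 3 higher at an unadjusted p under 0.05, with a median of 0.16 and sums of 756 to 1090 CPM after injection and 693 to 932 CPM without. Among them ACKR1, a chemokine-binding receptor of venules named after its values were seen, had 0.56 ± 0.09 (SE, adjusted p = 0.173 by edgeR and 0.00039 by DESeq2). All 9 adipocyte markers were positive, with a median of 0.82 (0.35 without site 7b), 0 at an unadjusted p under 0.05 and overlapping sums of 1808 to 4513 CPM and 1211 to 5265 CPM. All 9 hair follicle markers were positive too, with a median of 0.20 (0.07 without site 7b). Positive were also 6 of 10 fibroblast, 7 of 13 myeloid, 6 of 18 lymphocyte and 2 of 4 mast cell markers. None in these other lists was below an unadjusted p of 0.05 by edgeR. Of all genes tested, 48.2% were positive, and 2.39% were higher and 2.15% lower at that p. With all 8 biopsies edgeR called no marker of any of these lists, DESeq2 called ACKR1 alone, and no marker was at 0 in every biopsy. Their part in the values of MYC, PIM3 and the other members was not tested.

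BCL6 showed the same order within each pig after TMM scaling, with a smaller gap. In pig 13 it was at 106.7 and 103.7 CPM after injection and at 101.1 and 101.9 CPM in controls, a narrow difference. In pig 14 it was at 105.6 and 90.1 CPM after injection and at 75.0 and 79.2 CPM in controls. Both pig 13 controls lay above the pig 14 injected biopsy from site 12d, so the groups overlapped between animals. In CPM of the library totals they overlapped within pig 13 too, at 110.9 and 111.5 CPM injected and 110.3 and 111.3 CPM control. The log2 fold change was 0.20 ± 0.10 (SE, 95% interval -0.01 to 0.41, edgeR adjusted p = 0.964), with 0.05 ± 0.12 in pig 13 and 0.34 ± 0.12 in pig 14. BCL6 (ENSSSCG00000011810) lies on chromosome 13, 125377248 to 125393330, on the minus strand.

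Among the PIM kinases, PIM3 differed most between the groups. It was at 68.1 and 68.3 CPM in the injected biopsies of pig 13 and 59.9 and 62.3 CPM in those of pig 14. In controls it was at 59.0 CPM (site 7b) and 49.7 CPM (site 6b) in pig 13 and at 50.5 CPM (site 7e) and 40.8 CPM (site 6b) in pig 14. After TMM scaling, every injected biopsy was above every control biopsy. That held for PIM3 alone among the members and for 1.15% of all genes tested. In CPM of the library totals the groups overlapped. The pig 13 control from site 7b (64.4 CPM) was then above both injected biopsies of pig 14 (55.9 and 59.8 CPM). The TMM-scaled means were 64.7 ± 4.20 CPM after injection and 50.0 ± 7.46 CPM without it (SD, n = 4), a 1.30-fold difference with a 95% interval of 1.11 to 1.51. The log2 fold change was 0.37 ± 0.10 (SE), with an adjusted p of 0.772 by edgeR and 0.271 by DESeq2. PIM3 (ENSSSCG00000032936) lies on chromosome 5, 676469 to 680695, on the minus strand.

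PIM1 varied most among the control biopsies of pig 13. It was at 115.1 CPM in the pig 13 control from site 7b, the highest value of all 8, and at 60.4 CPM in the other pig 13 control. The pig 14 controls had 80.6 and 65.9 CPM. Injected biopsies were close together, at 84.1 and 81.6 CPM in pig 13 and 76.3 and 72.9 CPM in pig 14. The control mean of 80.5 ± 24.6 CPM was near the injected mean of 78.7 ± 5.05 CPM (SD, n = 4), with a log2 fold change of -0.03 ± 0.17 (SE, 95% interval -0.42 to 0.36, edgeR adjusted p = 0.989). Without the biopsy from site 7b the log2 fold change turned to 0.20 ± 0.12 (95% interval -0.07 to 0.46, edgeR adjusted p = 0.852). Without the other pig 13 control, from site 6b, it was -0.18, and without the pig 14 control from site 7e it was 0.028. The feedback gene SOCS3, another target of STAT factors, named after its values were seen, was at 29.0 CPM in the same biopsy, against 3.597 to 8.44 CPM in other controls and 36.8 to 47.2 CPM at injected sites. That biopsy also had the marker levels given above, and their part in the PIM1 value was not tested. PIM1 (ENSSSCG00000001573) lies on chromosome 7, 32788005 to 32793880, on the plus strand.

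PIM2, the least abundant member, had log2 fold changes of opposite sign in the 2 pigs. In pig 13 it was at 3.77 and 3.81 CPM after injection, below both controls with 5.93 and 4.62 CPM. In pig 14 it was at 3.79 and 5.29 CPM after injection against 3.99 and 2.98 CPM in controls, which overlap. The log2 fold change was -0.48 ± 0.27 in pig 13 and 0.38 ± 0.28 in pig 14 (SE), and their difference of 0.86 ± 0.39 did not pass (edgeR adjusted p = 0.607). Over both pigs it was -0.06 ± 0.23 (95% interval -0.56 to 0.45, edgeR adjusted p = 0.984), an interval that reaches well to both sides of 0. PIM2 (ENSSSCG00000028964) lies on chromosome X, 42993551 to 42998576, on the minus strand.

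As a share of the summed length-scaled level of the 3 PIM genes, PIM3 made up 36.5% to 38.0% after injection and 27.2% to 36.8% without. PIM1 made up 56.7% to 59.6% and 57.3% to 68.1%, and PIM2 3.57% to 5.54% and 3.95% to 5.91%. The groups overlapped in all 3 shares. For PIM3 the overlap came from the pig 13 control of site 6b alone, which had 36.8%, while the other controls had at most 31.4%.

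Of the survival genes of the BCL2 family, only BCL2L1 could be counted. It was at 70.9 and 75.6 CPM in injected biopsies of pig 13 against 55.4 and 68.7 CPM in its controls, and at 87.8 and 83.9 CPM in injected biopsies of pig 14 against 73.5 and 80.5 CPM. After TMM scaling, injected sites were above the controls of the same pig in both animals. Pig 14 controls were above or between the injected values of pig 13. In CPM of the library totals, the pig 13 control from site 6b (75.0 CPM) was above the injected biopsy from site 12c (74.0 CPM). The TMM-scaled means were 79.5 ± 7.68 and 69.5 ± 10.6 CPM (SD, n = 4), and the log2 fold change was 0.20 ± 0.09 (SE, 95% interval -0.01 to 0.40, edgeR adjusted p = 0.964). BCL2L1 (ENSSSCG00000035357) lies on chromosome 17, 35366141 to 35415359, on the minus strand.

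After TMM scaling, the D cyclins among the members differed less between groups than between pigs. For CCND3 this depended on the scaling. In CPM of the library totals its range in pig 13 (42.5 to 48.9 CPM) lay within that in pig 14 (38.5 to 52.7 CPM). CCND2 was at 51.4 and 55.4 CPM at injected and 50.1 and 57.6 CPM at control sites of pig 13, which overlap. In pig 14 it was at 73.5 and 78.4 CPM at injected and 64.3 and 60.4 CPM at control sites, which do not. The log2 fold change was 0.14 ± 0.10 (SE, 95% interval -0.08 to 0.35, edgeR adjusted p = 0.964). CCND3 ranged from 40.7 to 54.9 CPM after injection and from 41.0 to 51.0 CPM without, with overlap in both pigs and a log2 fold change of 0.05 ± 0.10 (SE, 95% interval -0.17 to 0.27, edgeR adjusted p = 0.974). The interval of CCND3 thus spans a fold of 0.889 to 1.21. CCND2 (ENSSSCG00000038694) lies on chromosome 5, 66087379 to 66114571, and CCND3 (ENSSSCG00000032284) on chromosome 7, 37082097 to 37181366, both on the minus strand.

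CCND1, the D cyclin that is no member, was the most abundant of the 3 per length and had the largest difference of them. After TMM scaling it ranged from 126.7 to 142.3 CPM at injected and from 98.1 to 122.7 CPM at control sites. The groups did not overlap on this scale. Its log2 fold change was 0.34 ± 0.10 (SE, edgeR adjusted p = 0.895). CCND2 made up 32.3% to 42.0% of the summed length-scaled level of the 3 cyclins after injection and 36.3% to 43.4% without it, and CCND3 8.17% to 9.45% and 8.31% to 11.08%.

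Across the 8 counted members, 4 had both injected sites of each pig above both of its controls after TMM scaling, namely MYC, BCL6, PIM3 and BCL2L1. The reverse order was present in 0 members. The first pattern was present in 3.11% of all genes tested and the reverse in 563 of 19862. In CPM of the library totals, MYC and PIM3 kept the first pattern, while BCL6 and BCL2L1 lost it in pig 13. In a two-sided exact permutation test that relabels sites within each pig, these 4 members each had p = 0.0556, the smallest that the 36 arrangements allow, so this design cannot reach 0.05 for a single gene. CCND2 had an exact p of 0.222, CCND3 of 0.667, PIM2 of 0.944 and PIM1 of 1.

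**Figure D4:**
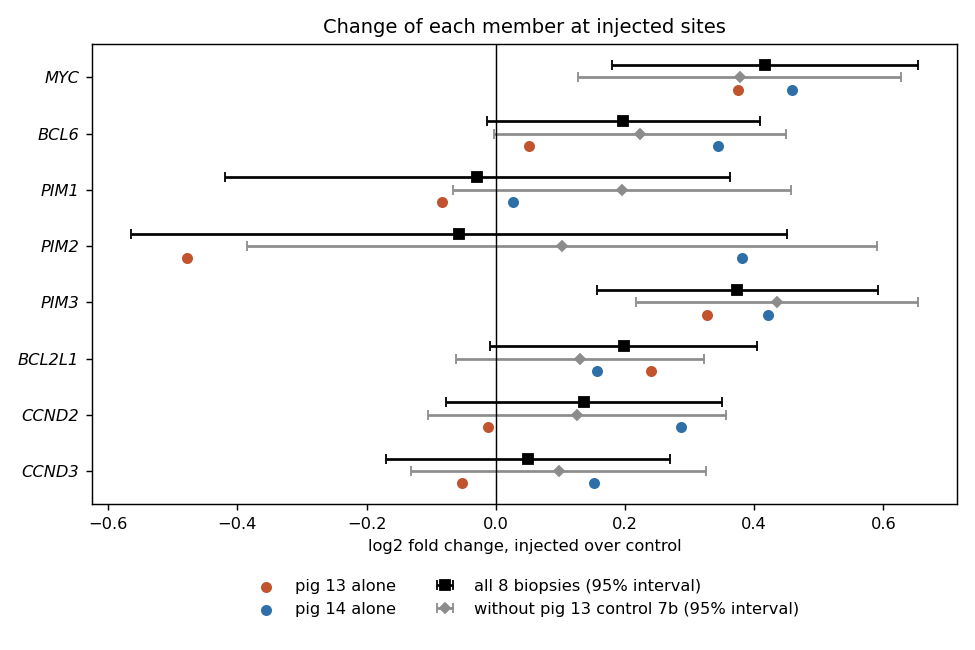
Log2 fold change of injected over control sites (x axis) for each counted member (y axis), with squares and 95% intervals for all 8 biopsies, grey diamonds and intervals without the pig 13 control from site 7b, and coloured points for each pig alone. The intervals of MYC and PIM3 lie above 0 before adjustment over all genes, PIM1 moves from -0.03 to 0.20 without that biopsy, and the 2 pigs lie on opposite sides of 0 for PIM2.

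Without the pig 13 control from site 7b, all 8 counted members had a positive log2 fold change. These include BCL6, which STAT5 is known to turn down in T cells. Their median was 0.16, beside -0.0029 over all genes. PIM1 and PIM2 turned positive when this biopsy, which held their highest value, was dropped. The confidence intervals included 0 for every member but MYC and PIM3, with -0.07 to 0.46 for PIM1 and -0.39 to 0.59 for PIM2. Again none of the members was called (edgeR, 0.094% of all genes called higher). At an unadjusted p under 0.05 there were 2 higher, beside 3.38% of all genes. PIM3 then had 0.44 ± 0.10 (SE, edgeR adjusted p = 0.353) and MYC 0.38 ± 0.11 (edgeR adjusted p = 0.694). BCL6 had 0.22 ± 0.10, BCL2L1 0.13 ± 0.09 and PIM2 0.10 ± 0.22. Pig 13 was then left with 1 control, the biopsy from site 6b.

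Pig 13 and pig 14 were compared by a pig-by-treatment interaction. None of the 8 members was called, with 0% of all genes called by edgeR, and none was below an unadjusted p of 0.05, where 8.22% of all genes were. The difference of log2 fold changes, pig 14 minus pig 13, was 0.29 ± 0.17 for BCL6 and 0.30 ± 0.17 for CCND2 (SE, edgeR adjusted p = 0.676 for both). With library totals in place of TMM it was 0.39 for each of these 2 genes. With TMM it was 0.08 ± 0.21 for MYC, with a 95% interval of -0.40 to 0.56, and 0.09 ± 0.20 for PIM3, with -0.35 to 0.53. Intervals of this width do not show that the pigs responded alike.

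Other genes of the pathway around the members were read from the same fit, and edgeR called none of those listed here with all 8 biopsies. Of 15 tested other targets of gamma chain cytokines and STAT5, 5 were higher and 0 lower at an unadjusted p under 0.05, beside 2.39% and 2.15% of all genes, with a median log2 fold change of 0.20. DUSP5, a phosphatase of MAP kinases, had 0.51 ± 0.11 (SE, adjusted p = 0.543 by edgeR and 0.0371 by DESeq2), the only one of the 15 that DESeq2 called. CCND1, described above, had the next smallest p. SOCS3 had the largest log2 fold change of the 15, at 1.86 ± 0.63 (SE, edgeR adjusted p = 0.964). Without the pig 13 control from site 7b it was 2.83 and was called (edgeR adjusted p = 0.0010), the only gene of these related lists for which that held. Of 11 receptor chains, kinases and STATs, 0 were higher or lower at an unadjusted p under 0.05, with a median of 0.05, and DESeq2 called none of them.

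Of 16 tested genes that MYC is known to drive, 12 had a positive log2 fold change, beside 48.2% of all genes. At an unadjusted p under 0.05, 3 were higher and 0 lower, beside 2.39% and 2.15% of all genes, with a median of 0.04. The smallest p were those of BOP1 with 0.28 ± 0.09 and RRP9 with 0.35 ± 0.12 (SE, edgeR adjusted p = 0.964 for both), which act in ribosome production. Other genes of ribosome production in the same list, named after their values were seen, were at 0.25 (RRP12), 0.19 (NCL), 0.14 (NOP56), 0.04 (POLR1B), 0.03 (NOP58), 0.02 (FBL) and -0.09 (NPM1). Of 11 partners and relatives of MYC, 0 were higher and 1 lower, with a median of -0.02. That 1 was MXI1, which competes with MYC for the partner MAX, at -0.27 ± 0.12. MLX, a relative of MAX, had 0.20 ± 0.09, and DESeq2 called no gene of either list.

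The counterparts of the survival and cell cycle members showed no called change either. Of 8 tested effectors and BH3 proteins of cell death, 0 were higher and 1 lower at an unadjusted p under 0.05, with a median of 0.02. BMF, a BH3 protein that binds the survival proteins, had -0.21 ± 0.09 and PMAIP1, which binds MCL1, 0.21 ± 0.13. Of 18 cyclins, kinases and inhibitors of the first cell cycle phase, 1 was higher (CCND1) and 1 lower (RBL1, a relative of the retinoblastoma protein, -0.23 ± 0.09), with a median of -0.04. Of 8 tested substrates of PIM kinases and growth regulators, none was below an unadjusted p of 0.05, and the smallest p were those of CDKN1A (-0.12 ± 0.10) and RPS6KB1 (-0.12 ± 0.10). BCL2A1, the only other survival gene of the BCL2 family that was tested, had 0.57 ± 0.43 at means of 1.27 CPM after injection and 0.953 CPM without. All had an edgeR adjusted p of at least 0.895, and DESeq2 called none of them.

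**Figure D5:**
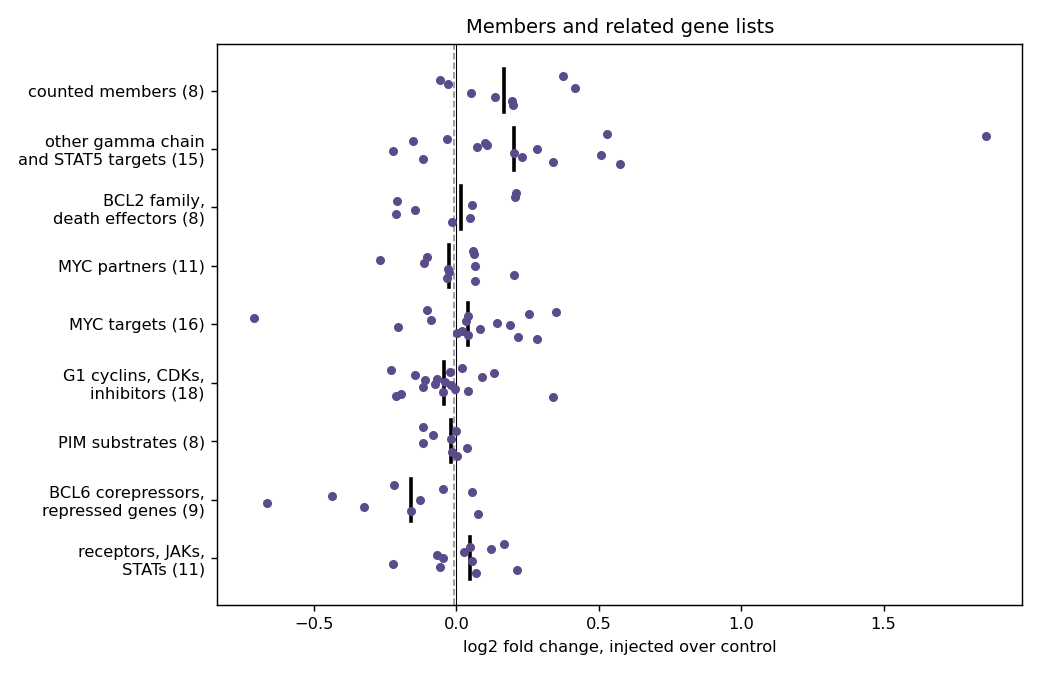
Log2 fold change of injected over control sites (x axis) for each tested gene of the members and of 8 related lists (y axis, number of tested genes in brackets), with a black bar at the median of each list and a dashed line at the median of all genes tested, -0.0078. The members and the other STAT5 targets have medians of 0.17 and 0.20, and the point at the far right is SOCS3.

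The members did not vary as 1 block. With the mean of each pig removed, Pearson correlations of log2 CPM over the 8 biopsies between pairs of members ran from -0.60 for PIM1 and BCL2L1 to 0.83 for MYC and BCL6, with a median of 0.36, and 22 of 28 pairs were positive. These are descriptions over 8 biopsies of 2 pigs that share the treatment groups and the library of each point. Among 13586 other named genes above 1 CPM, those most like MYC in this measure were LAMA2 (0.97), KRT3 (0.97), CCDC71 (0.96), SPRY1 (0.96) and MFN2 (0.95). Those most like PIM3 were ABCF1 (0.98), AVPR1A, ADAMTS4, C1orf74 and ALKBH6 (0.97 each). Picking the highest of so many values over 8 biopsies was not corrected for, and the treatment difference was not removed. KRT3 had a log2 fold change of 1.09 ± 0.19 and ADAMTS4 of 2.22 ± 0.50 (SE), the other genes named here 0.11 to 0.41.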

How the data were processed

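RNA of 8 biopsies was sequenced from ribosome-depleted total RNA. Tools named by the submitters' processing notes are STAR 2.5.1a, bcl2fastq and, from Subread, featureCounts 1.4.6-p5, with the build Sscrofa11.1, and the counting settings are not given in the sources used here. The deposited values, per the file headers, are raw counts for each Ensembl gene, CPM made by the authors from library totals, and RPKM made by the authors as CPM per kilobase of exons. The exon lengths are a further deposited column, in bases, of another kind. The counts of all files matched the series table, and the file of the pig 13 control from site 7b ended after 607 genes, so its counts came from that table. Of 32388 rows, 425 genes on several rows were kept once.

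All tests ran on counts. Genes passing filterByExpr of edgeR 4.0.16 (minimum count 10, R 4.3.3) were scaled by TMM and fitted with pig and treatment by quasi-likelihood with robust estimation, and adjusted over 19862 genes by the method of Benjamini and Hochberg. The block follows the pig in the labels. Deviations from group means correlated 0.25 to 0.54 within a pig and -0.49 to -0.28 across pigs. DESeq2 1.42.0, limma 3.58.1, other scalings and filters, no block, each pig alone and each biopsy left out were alternatives. The procedure was tested on simulated data. Exon overlap was counted base by base from the deposited gene models. Log2 CPM for correlations used a prior count of 2. Symbols came from the table and from the gene name and RefSeq tables, with 201 of 216 listed symbols found. The named genes are the members, the 2 genes with the smallest p in each related list and the 5 genes most like MYC and PIM3. Lists of cell type markers were used as summed levels and as log2 fold changes. The members, the lists and this rule were chosen with earlier results of these data known.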

Additional observations from a re-analysis of the deposited data

Results flagged for a closer look

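In the controls, MYC was at 84.96 CPM in the pig 13 biopsy from site 6b, apart from the other 3 controls at 69.7 to 71.6 CPM. Among injected biopsies, PIM2 was at 5.293 CPM in the pig 14 biopsy from site 12d, apart from the other 3 at 3.77 to 3.81 CPM. These were 2 of 34 groups of 4 biopsies examined over members and marker sums, and chance sets a biopsy apart in this way in about 1 in 20 groups.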

How the results depend on the processing

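No member was called under any of 18 other settings, among them DESeq2, limma-voom, RLE size factors, library totals, no filter, a filter at 1 CPM in 4 biopsies, non-robust estimation, the change within each pig and each biopsy left out. MYC kept a log2 fold change of 0.34 to 0.48 and PIM3 of 0.31 to 0.44. Direction turned in 12 of 144 member values. PIM1 had 0.012 by limma-voom and 0.027 in pig 14, and from -0.18 to 0.20 with a biopsy left out. PIM2 had 0.38 in pig 14 and from -0.24 to 0.10 with a biopsy left out. CCND2 had -0.012 in pig 13. CCND3 had -0.052 in pig 13 and from -0.016 to 0.10 with a biopsy left out. With library totals only, the interaction of BCL2L1 turned from -0.08 to 0.012. That of every other counted member rose as well, for example MYC from 0.08 to 0.18 and BCL6 from 0.29 to 0.39. The cause was not tested. Over all genes, 7 were called higher, against 48 by DESeq2, 4 for the change within pig 13, 6 with no replicate block and 3 to 19 with a biopsy left out, the 19 being those without the pig 13 control from site 7b. Called lower were 0, against 10 by DESeq2 and 0 to 1 with a biopsy left out. For the interaction 0 were called, against 86 by DESeq2. RPKM recomputed from the counts and library totals gave MYC a mean of 26.9 and PIM1 of 27.8 per kilobase, in the same order as the scaled values. The promoter motif comparison was not run, since no sequence was used here. Depth limits PIM2 most.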

Other observations

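Other genes of skin biology share the gap at MCL1. Of the 140 protein-coding genes whose exons lie wholly in exons of other genes, 63 have a symbol, and all 140 had 0 counts in every biopsy. Among them, chosen after their values were seen, are CCL27, a chemokine of keratinocytes that attracts T cells to skin, S100A14, a calcium-binding protein of epithelia, LYZ, the lysozyme gene, and NUP62, a nuclear pore protein. Of these 140, 75 are covered by genes of the opposite strand alone and 61 by genes of the same strand. Their levels cannot be read from these counts.

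Of 9 tested corepressors and genes that BCL6 is known to repress, 2 had a positive log2 fold change, beside 48.2% of all genes, and the median was -0.16, beside -0.0078. CXCR4, a chemokine receptor, had -0.66 ± 0.20 at means of 6.67 CPM after injection and 10.5 CPM without (SE, edgeR adjusted p = 0.895), and PRDM1, a transcriptional repressor, had -0.22 ± 0.11 (edgeR adjusted p = 0.964). None was called by edgeR or DESeq2, and at an unadjusted p under 0.05 there was 1 lower and 0 higher, beside 2.15% and 2.39% of all genes. Without the pig 13 control from site 7b the median was -0.04 and CXCR4 had -0.45.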
